A study of Caenorhabditis elegans with 12 samples.

Results

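The transcripts described here encode HSF-1, the transcription factor of the heat shock response, and the chaperones that fold proteins in the cytosol of unstressed cells: the HSP70 protein HSP-1, its partners UNC-23, DNJ-12, DNJ-13 and DNJ-19, the HSP90 protein HSP-90 (also called DAF-21) and the myosin chaperone UNC-45. They were taken by name, and not by any measured value, from the rows of the deposited table whose sequence names belong to these genes in the WBcel235 annotation of Caenorhabditis elegans. Of the 8 genes named, unc-45 lies on chromosome III, where every row is at 0, and was left out by that rule. This left 7 of the 27928 rows of the table, of which 6 had counts and were tested among 13460 genes.

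Whole worms of the wild-type strain N2 spent 44 h on agar plates at 20 °C that carried vitamin D (6 pools) or only its vehicle, dimethyl sulfoxide (6 pools), and the RNA of each pool was sequenced as 1 library. No transgene, mutation or heat stress is named in the labels, and both groups share the strain and the solvent. The series text gives a vitamin D dose of 100 µM, pools of 50 worms and a start at the L4 larval stage, while the sample protocols give 100 mM, 40 worms and a start at 1 day of age. The series is about protein homeostasis and lifespan under vitamin D, and the question asked of these genes is whether the transcripts of the general folding machinery differed in level between the treatments. Each pool is a mixture of all tissues, in which fewer cells of a type and less RNA per cell cannot be told apart.

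In the cytosol of animal cells, J-domain proteins bring unfolded chains to HSP70 and trigger its ATP hydrolysis, which closes HSP70 on the chain, and nucleotide exchange factors such as BAG-domain proteins make it let go. Some client proteins pass on to HSP90, which completes the folding of kinases, receptors and, together with UNC-45, of myosin. When unfolded proteins build up, HSF-1 forms trimers, binds heat shock elements in promoters and raises the transcription of inducible chaperones, and in worms it is also known for its roles in development and lifespan.

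None of the 6 tested genes passed the threshold between treatments, a Benjamini-Hochberg adjusted p under 0.05 in edgeR's quasi-likelihood test over all 13460 genes. Among all tested genes 3.66% passed (1.75% higher and 1.90% lower with vitamin D), so a count of 0 of 6 is near the background. At an unadjusted p under 0.05 the count was also 0 of 6, against 16.7% of all tested genes, and DESeq2 called 0 of 6, against 8.64% of all genes. The largest change of a member was a log2 fold change of -0.07 (dnj-19), and 74.4% of all tested genes had a larger absolute log2 fold change. The 95% intervals of the fit for the ratio of vitamin D over vehicle all lay between 0.842 and 1.15; each is the interval of a single gene under this scaling, not a joint bound. Levels below are CPM, counts relative to the library total, scaled with edgeR's TMM factors, which correct for differences in library composition.

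The HSF-1 gene itself, hsf-1 (Y53C10A.12, chromosome I, 11953507 to 11963085, minus strand), was expressed at moderate level. Its lowest, median and highest values were 63.98, 67.5 and 76.1 CPM in vitamin D libraries and 59.2, 65.4 and 72.6 CPM in vehicle libraries, and the groups overlapped, with 1 vitamin D library above all vehicle libraries. The mean was 68.3 ± 4.37 CPM on vitamin D and 65.7 ± 5.68 CPM on vehicle (SD, n = 6 each), which is a difference of 0.06 on the log2 scale (SE 0.07, adjusted p = 0.713 in edgeR). Among the vehicle libraries, libraries 1, 2 and 3 were low, at 59.2, 62.7 and 60.5 CPM, and libraries 4, 5 and 6 higher, at 68.1, 71.2 and 72.6 CPM. The deposited counts behind these values ran from 1849 to 3073 reads per library, so counting error alone would give a coefficient of variation (CV) of at most 2.33%, against a measured 6.40% on vitamin D and 8.65% on vehicle.

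Transcript of hsp-1 (F26D10.3, chromosome IV, 17278959 to 17281330, plus strand), the constitutive HSP70 of the cytosol, was the most abundant of the set. Its lowest, median and highest values were 2482, 2608 and 3020 CPM in vitamin D libraries and 2522, 2634 and 2870 CPM in vehicle libraries. Vitamin D libraries held both the highest value and the 2 lowest. The mean of 2669 ± 205 CPM on vitamin D and that of 2664 ± 144 CPM on vehicle (SD, n = 6 each) gave a ratio of 1.00 with a 95% interval of 0.918 to 1.09 (edgeR adjusted p = 0.986).

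The gene unc-23 (H14N18.1, chromosome V, 8936359 to 8939684, plus strand) encodes a BAG-domain protein related to mammalian BAG2 that binds HSP-1, and its loss makes body wall muscle detach. Its lowest, median and highest values were 72.1, 76.1 and 78.6 CPM in vitamin D libraries and 70.2, 73.6 and 76.4 CPM in vehicle libraries. In 3 of the 6 vitamin D libraries the level was above that of every vehicle library, and the other 3 lay within the vehicle range. On the log2 scale the difference was 0.04 (SE 0.04, adjusted p = 0.661 in edgeR), and the CV between pools was 3.33% on vitamin D and 3.48% on vehicle, against medians over all tested genes of 15.2% and 20.1%. This CV was as low or lower in only 1.54% of all tested genes, of any level, on vitamin D and 1.86% on vehicle. On vehicle dnj-12 and dnj-19 had similar CVs, 3.08% and 3.68%, whereas on vitamin D theirs were 7.51% and 7.80%. The last 93 bp of the gene span overlap T19A5.3 on the other strand, which held 75794 counts in all libraries together, against 30794 for unc-23. How many reads of this overlap went to unc-23 was not tested.

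DNJ-12 and DNJ-19 belong to the DNAJA class of J-domain proteins, the close relatives of yeast Ydj1. Transcript of dnj-12 (F39B2.10, chromosome I, 14756904 to 14758790, plus strand) had lowest, median and highest values of 273, 296 and 340 CPM in vitamin D libraries and 299, 313 and 324 CPM in vehicle libraries. For dnj-19 (T05C3.5, chromosome V, 5503033 to 5504857, minus strand) these values were 290, 307 and 355 CPM in vitamin D libraries and 313, 328 and 342 CPM in vehicle libraries. Both genes showed the same arrangement: 3 vitamin D libraries lay below all vehicle libraries and 1 lay above them. The mean of dnj-12 was 300 ± 22.5 CPM on vitamin D and 313 ± 9.62 CPM on vehicle (SD, n = 6 each), a difference of -0.06 on the log2 scale (SE 0.05, adjusted p = 0.618 in edgeR). The mean of dnj-19 was 311 ± 24.2 CPM on vitamin D and 327 ± 12.03 CPM on vehicle (SD, n = 6 each), a difference of -0.07 on the log2 scale (SE 0.06, adjusted p = 0.558 in edgeR).

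The HSP90 gene hsp-90 (C47E8.5, chromosome V, 14684918 to 14688545, plus strand) had lowest, median and highest values of 2173, 2280 and 2966 CPM in vitamin D libraries and 2262, 2499 and 2749 CPM in vehicle libraries. Vitamin D libraries 2, 3 and 4, at 2205, 2173 and 2173 CPM, lay below every vehicle library, and vitamin D library 5, at 2966 CPM, lay above every one. The mean was 2377 ± 304 CPM on vitamin D and 2498 ± 172 CPM on vehicle (SD, n = 6 each), a difference of -0.07 on the log2 scale (SE 0.08, adjusted p = 0.707 in edgeR). Its 95% interval, 0.842 to 1.08 as a ratio, reached lower than that of any other member. The first 568 bp of the gene span overlap C47E8.4 on the other strand, which held 11056 counts in all libraries together against 1009289 for hsp-90; whether the counting used strand is not stated in the labels.

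**Figure D1:**
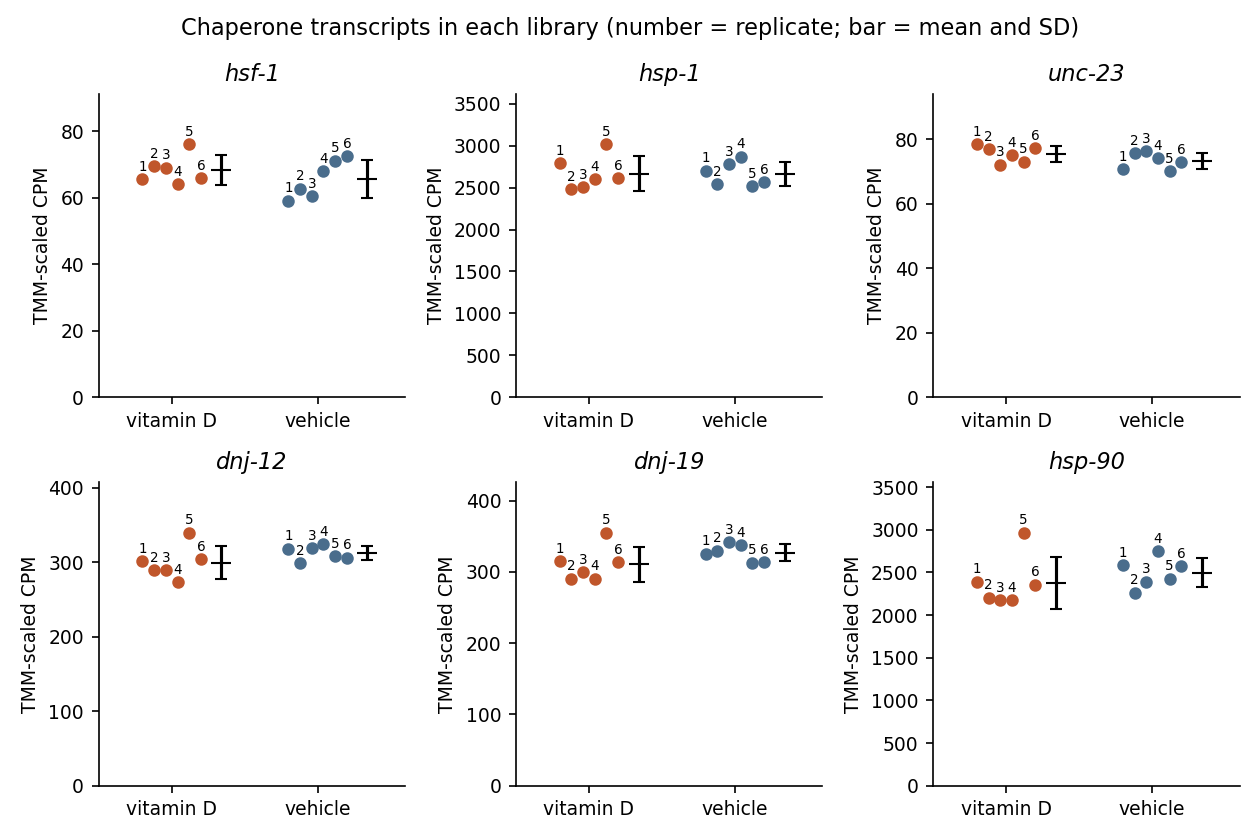
Level of each tested gene in each library, in CPM scaled with TMM factors (y axes start at 0), for 6 vitamin D and 6 vehicle pools; points are pools with their replicate number, and the bar beside them is the mean and SD. The groups overlap for every gene, and vitamin D library 5 is the highest vitamin D library for all but unc-23.

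**Figure D2:**
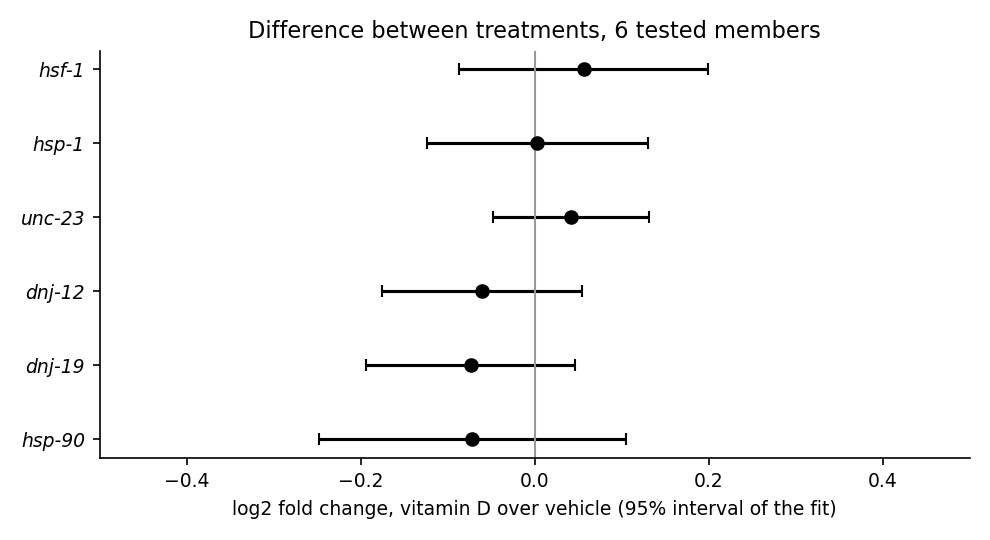
Log2 fold change of vitamin D over vehicle for each tested gene (points) with the 95% interval of the edgeR fit (bars). Every interval includes 0, and the point estimates lie between -0.07 and 0.06.

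A single vitamin D pool carried much of the spread within its group. Vitamin D library 5 had the highest value of all 12 libraries for hsf-1, hsp-1, dnj-12, dnj-19 and hsp-90, at 76.1, 3020, 340, 355 and 2966 CPM, whereas unc-23, at 73.1 CPM, was the second lowest of its group there. The same library had the highest level of oocyte and germline markers, with a median log2 deviation of 1.19 over the 14 tested genes of that list, against -0.48 to -0.25 in the other vitamin D libraries and -0.67 to 0.62 in vehicle libraries. Their summed level was 4220 CPM in vitamin D library 5, against 2065 to 2304 CPM in the other vitamin D libraries and 1925 to 3606 CPM in vehicle libraries, and 7 of the 21 listed genes were at 0, 6 of them on chromosome III. Sperm markers were also highest there among vitamin D libraries, at 3446 CPM against 1498 to 1968 CPM in the other 5. The 15 tested intestine markers summed to 16003 CPM there, above all 11 other libraries. Their median log2 deviation was 0.07, above the -0.38 to -0.007 of the other vitamin D libraries but within the 0.04 to 0.47 of vehicle libraries. Body wall muscle markers, 14 of 14 tested, summed to 16994 CPM in that library, against 18228 to 19424 CPM in the other vitamin D libraries and 17031 to 19595 CPM in vehicle libraries. The part of these tissues in the chaperone levels was not tested.

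Without vitamin D library 5 the log2 fold changes became -0.14 for hsp-90, -0.11 for dnj-19 and -0.10 for dnj-12, with edgeR adjusted p-values of 0.209, 0.148 and 0.227. At an unadjusted p under 0.05 these 3 genes passed. The share of all tested genes under 0.05 was 16.7% in the main fit. It was not counted in this fit, so these 3 passes have no background share and are not read as a result. After adjustment the number of members past the threshold stayed at 0, while 625 of 13513 tested genes passed. The library left out held the highest value of all libraries for these 3 genes, so the choice itself lowered their vitamin D means. The log2 fold change of hsf-1 was 0.02 and that of hsp-1 -0.03 without this library.

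Vehicle libraries differed most in the sperm list, whose 33 tested genes of 37 had median log2 deviations of -1.59 and -1.90 in vehicle libraries 2 and 3, against 0.86 to 1.33 in the other vehicle libraries and -0.49 to 0.75 in vitamin D libraries. Summed sperm marker levels were 1498 to 3446 CPM in vitamin D libraries, 740 and 605 CPM in vehicle libraries 2 and 3, and 3757 to 5274 CPM in the other vehicle libraries. The members had no common direction in these 2 libraries. Among the 6 vehicle libraries they were the lowest for hsp-90, at 2262 and 2393 CPM, and the highest for unc-23, at 75.7 and 76.4 CPM. For hsp-1 they lay within the range of the others, at 2541 and 2784 CPM, and hsf-1 was below its vehicle median in both. The part of sperm content in these levels was not tested. With vehicle libraries 2 and 3 left out, 28.6% of all tested genes passed the threshold, and of the 6 members still 0 passed, with log2 fold changes from -0.11 (hsp-90) to 0.08 (unc-23). The lowest adjusted p among them in that fit was 0.249 (unc-23, edgeR). Without vehicle libraries 5 and 6, a choice made after seeing the data, 0 of 6 passed against 4.49% of all tested genes, and hsf-1 had a log2 fold change of 0.12.

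**Figure D3:**
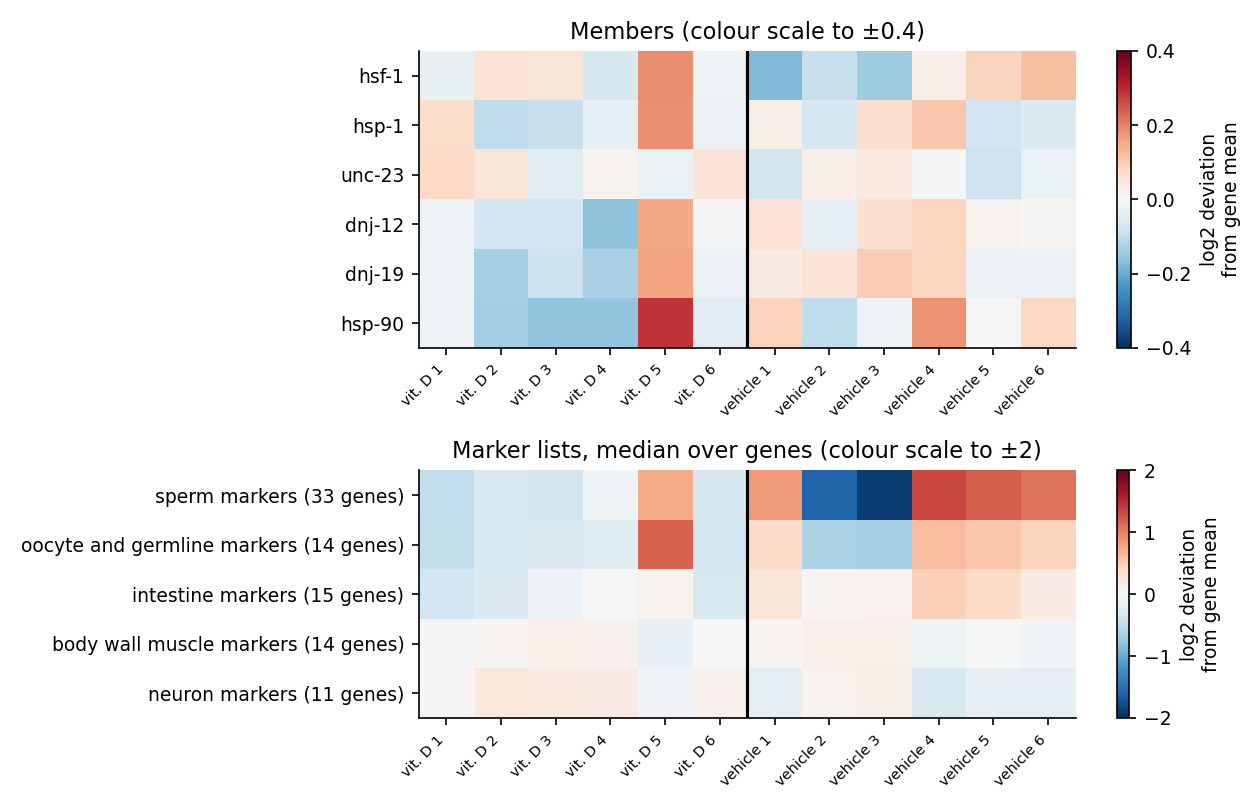
Log2 deviation of each library (columns, 6 vitamin D then 6 vehicle) from the mean over all libraries, for the 6 tested members (upper panel) and as the median over the genes of 5 marker lists (lower panel); red is above and blue below the mean, on a scale to ±0.4 above and ±2 below. Vitamin D library 5 stands above the rest for every member but unc-23 and for the oocyte list, at 1.19, and vehicle libraries 2 and 3 stand below the rest for the sperm list, at -1.59 and -1.90.

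Per kilobase of exon the members fell into 3 tiers, with the same order of means in both groups. The chaperones hsp-1 and hsp-90 averaged 1288 ± 98.7 and 1008 ± 129 CPM per kb on vitamin D and 1285 ± 69.4 and 1059 ± 72.7 CPM per kb on vehicle (SD, n = 6 each). Ranked among all tested genes by their CPM, hsp-1 stood at the 99.8th percentile. The J-domain genes dnj-19 and dnj-12 averaged 202 ± 15.8 and 179 ± 13.4 CPM per kb on vitamin D and 213 ± 7.83 and 187 ± 5.75 CPM per kb on vehicle. The genes unc-23 and hsf-1 averaged 33.9 ± 1.13 and 27.6 ± 1.77 CPM per kb on vitamin D and 32.9 ± 1.15 and 26.5 ± 2.29 CPM per kb on vehicle.

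Some neighbours in this order lay within each other's spread. The ranges of hsp-1 and hsp-90 overlapped on vitamin D (1197 to 1457 and 921 to 1257 CPM per kb) and not on vehicle (1217 to 1384 and 959 to 1165 CPM per kb), and those of dnj-19 and dnj-12 likewise overlapped on vitamin D only. Within a library, the level of hsp-1 per kb was above that of hsp-90 in all 12, by 1.16- to 1.36-fold on vitamin D and 1.14- to 1.32-fold on vehicle. By CPM without division by length, hsp-1 was slightly below hsp-90 in vehicle library 6, at 2565 and 2569 CPM. The ratio of dnj-12 to dnj-19 varied little, with 0.886 ± 0.0176 on vitamin D and 0.878 ± 0.0287 on vehicle (SD, n = 6 each). For each unit of unc-23 transcript there were 38.1 ± 3.36 of hsp-1 on vitamin D and 39.1 ± 2.08 on vehicle, per length.

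**Figure D4:**
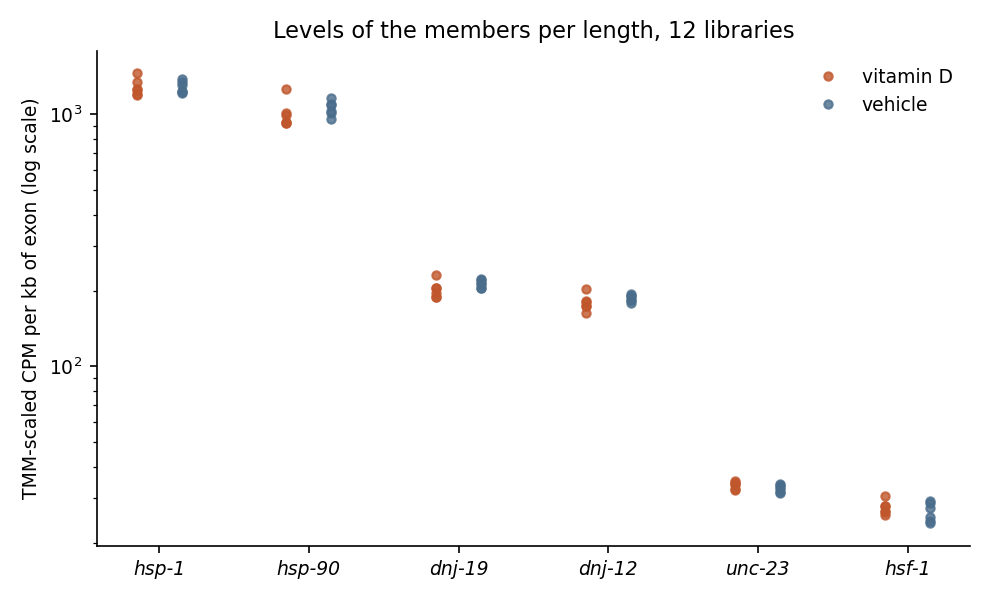
Level per kilobase of exon (CPM per kb, log scale) of the 6 tested genes in 6 vitamin D (left of each pair) and 6 vehicle libraries; each point is a library. The order of the means from hsp-1 to hsf-1 was the same in both groups, in 3 tiers that do not overlap.

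A further J-domain gene, dnj-13 (F54D5.8, chromosome II, 11545701 to 11547360, plus strand), encodes a relative of human DNAJB1 that works with HSP70 and HSP110 on protein aggregates. It was listed at 0 in all 12 libraries and gave no measurement. The whole gene lies inside the span of dhgd-1, a gene of the opposite strand (11538895 to 11552081) that held 103933 counts in all libraries together. This arrangement went with zeros across the table: of the protein-coding genes outside chromosome III that lie wholly inside the span of another one, 71.8% (329 of 458) were at 0 in every library, against 0.703% (112 of 15931) of those that do not. How the authors assigned reads in overlapping genes is not stated in the labels, so this 0 cannot be read as a lack of dnj-13 transcript, and no upper limit is drawn from it. The inducible HSP70 gene hsp-70 (C12C8.1), which lies inside the span of uggt-2, was at 0 in the same way. For unc-45 (F30H5.1, chromosome III, 491547 to 502625), 2799 of 2799 rows matched to that chromosome were at 0.

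The genes with the level pattern closest to a member, by Pearson's r of log2 CPM over the 12 libraries among 8098 other genes of at least 10 CPM, were looked up for hsf-1, hsp-1 and hsp-90. For hsp-1 they were cct-7, a subunit of the cytosolic chaperonin TRiC (r = 0.94), ruvb-2, an AAA+ ATPase gene (0.93), and Y57A10A.5 (0.91). For hsp-90 they were Y55D9A.2, nasp-1, a gene for a histone chaperone, and Y105E8A.14 (0.97 each), and for hsf-1 rike-1, fic-1, which encodes an AMP-transferring enzyme of the ER, and Y69A2AR.1 (0.94, 0.94 and 0.93). The r values are the highest among 8098 and describe 12 libraries in which all genes share depth and tissue makeup. Vitamin D library 5 was the highest of the 12 for hsf-1, hsp-1 and hsp-90, and r without it was not computed.

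Genes that act with these chaperones were read from lists by role, 75 genes in all, of which 16 were at 0, 1 (hsp-16.41) had too few counts and 58 were tested. Of the 58, 1 passed the threshold (1.72%, against 3.66% of all tested genes), and their median log2 fold change was 0.02, against -0.0029 over all tested genes. This was a lower level of pfd-2, a subunit of prefoldin, the complex that hands new actin and tubulin to TRiC. It had 79.8 ± 3.47 CPM on vitamin D and 94.5 ± 5.36 CPM on vehicle (SD, n = 6 each), a difference of -0.24 on the log2 scale (SE 0.05, adjusted p = 0.0188 in edgeR), with every vitamin D library (76.7 to 85.2 CPM) below every vehicle library (86.8 to 100.3 CPM). Libraries of the groups failed to overlap for 3.90% of all tested genes. The call was lost without vitamin D library 1 (adjusted p = 0.0544) and with the replicate number as a block (adjusted p = 0.143), and with the trend of fold change on transcript length removed the log2 fold change was -0.04 (adjusted p = 0.815).

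Among regulators of HSF-1, 0 of 5 tested genes passed. The 2 with the largest changes were jmjd-3.1, a histone demethylase gene linked to the heat shock response in worms, with a log2 fold change of 0.29 (SE 0.20), and ddl-1, whose product binds HSF-1 in a complex with HSB-1, with -0.23 (SE 0.12). The row of hsb-1 was at 0, although it lies on chromosome IV and not inside the span of another protein-coding gene. The reason was not tested, so this 0 is not read as a lack of hsb-1 transcript. The list of HSP70 co-chaperones, which also holds the HSP70-like gene stc-1, had 0 of 3 tested genes past the threshold. In it the ubiquitin ligase gene chn-1, the worm CHIP, had a log2 fold change of -0.19 (SE 0.08) and stc-1 0.03 (SE 0.05). The HSP110 gene hsp-110 and hip-1 lie on chromosome III and were at 0. Of 8 tested HSP90 co-chaperones 0 passed, and the largest changes were those of ahsa-1, which stimulates the HSP90 ATPase, with -0.19 (SE 0.07), and of aipl-1, with -0.18 (SE 0.09).

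The other J-domain genes, named dnj and found in several compartments, had 0 of 20 tested past the threshold, with a median log2 fold change of 0.05. The largest changes among them were -0.29 (SE 0.25) for dnj-26 and 0.29 (SE 0.28) for dnj-27, an ER protein gene. Of the chaperonin TRiC 0 of 6 tested subunits passed; the log2 fold change was 0.41 for cct-3 (SE 0.16, adjusted p = 0.200 in edgeR) and 0.35 for cct-8 (SE 0.10, adjusted p = 0.0774), while the other 4 lay between -0.03 and 0.01. In prefoldin 0 rose and 1 of 4 fell, and pfd-3 had 0.26 (SE 0.09, adjusted p = 0.150 in edgeR).

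Heat-inducible chaperones, the usual readout of HSF-1 activity, were low in both groups, at a summed 5.99 to 10.99 CPM over the 7 tested genes on vitamin D and 5.87 to 10.2 CPM on vehicle. None of the 7 passed. The inducible HSP70 genes F44E5.5 and F44E5.4, which are near copies of each other so that their separate levels are uncertain, had 2.83 ± 1.18 and 1.70 ± 0.544 CPM on vitamin D and 2.28 ± 0.635 and 1.83 ± 0.545 CPM on vehicle (SD, n = 6 each). The other 5 tested rows, all small heat shock genes of the hsp-16 group and partly near copies too, averaged 0.532 to 1.41 CPM on vitamin D and 0.339 to 1.32 CPM on vehicle. HSP70 and HSP90 genes of the ER and mitochondria had 0 of 5 tested past the threshold, with log2 fold changes of 0.20 (SE 0.15) for enpl-1, the HSP90 of the ER, and 0.20 (SE 0.08) for hsp-4.

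With vehicle libraries 2 and 3 left out, 15 genes of these lists passed (28.6% of all tested genes did), 9 of them higher and 6 lower with vitamin D. The higher ones were jmjd-3.1, sgt-1, hsp-16.2, hsp-3, enpl-1, dnj-2, dnj-7, dnj-27 and dnj-29, and the lower ones chn-1, pfd-2, pfd-6, dnj-22, dnj-23 and dnj-26. The vehicle libraries kept had summed sperm markers of 3757 to 5274 CPM, above every vitamin D library (1498 to 3446 CPM). In the same fit 30 of 33 tested sperm markers passed as lower and 7 of 11 neuron markers as higher. For these 15 genes, treatment and tissue makeup therefore cannot be told apart. Without vehicle libraries 5 and 6, 4 passed (4.49% of all tested genes did), of which cct-3, cct-8 and pfd-3 were higher and pfd-2 lower. These 2 libraries were left out because they alone among the vehicle libraries had cct-3 and cct-8 near the vitamin D level, and pfd-3 was arranged likewise, so the choice itself fixed the direction of these 3 calls and they support nothing.

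**Figure D5:**
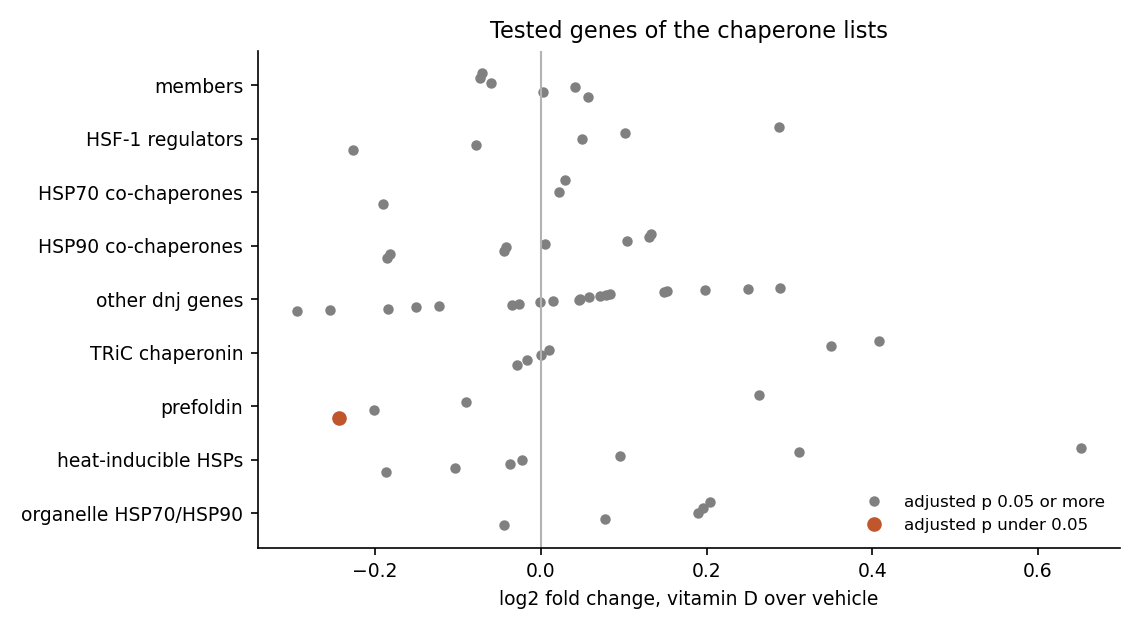
Log2 fold change of vitamin D over vehicle for each tested gene (points) of the members and of 8 lists of related genes (rows). The point in colour is pfd-2, at -0.24, the only listed gene with an adjusted p under 0.05; the members span -0.07 to 0.06.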

How the data were processed

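Per the labels' protocols, RNA of pooled worms was read as pairs of 50 bp from inserts of 200 bp on average. Of the tables that the authors deposited, one holds raw counts of reads for 27928 genes in 12 libraries and the other CPM. Every deposited CPM value equalled count over library total to within 2.91e-11, so this table served only for that check. The submitters' processing notes name edgeR 3.12.1; the aligner, counting tool, strand setting and build are not given in the sources used. Columns were matched through the sample descriptions. Rows were matched by sequence name to Ensembl release 115 of WBcel235: 27186 matched a single gene, 3 several and 739 none; the last stayed in the tests. Coordinates and exon lengths (union over transcripts) are of that annotation. Totals ran from 31383203 to 38720736 counts in vitamin D libraries and from 30203731 to 35230983 in vehicle libraries.

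Genes passing filterByExpr (minimum count 10, minimum total 15) were fitted in edgeR 4.0.16 (R 4.3.3) with TMM factors, treatment as the only term and robust quasi-likelihood dispersions, two-sided; the fit was tested on simulated data. DESeq2 1.42.0 was an alternative, as were other scalings, no filter, a replicate block, a sperm-level covariate, removal of a length trend and leaving out libraries. The pools are independent replicates per the series text, and p-values reflect how far they vary.

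The members, lists and most alternatives were chosen with earlier results of these data known. Of each list the text names the genes past the threshold (at most 4) and otherwise the 2 with the largest absolute change at a mean of at least 1 CPM, and for hsf-1, hsp-1 and hsp-90 the 3 genes closest in pattern; others were named after their values were seen.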

Additional observations from a re-analysis of the deposited data

Results flagged for a closer look

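The level of hsp-90 in vitamin D library 5 was 2966 CPM, far from the other vitamin D libraries: its gap to the next one, at 2391 CPM, was 0.725 of the whole range of the group, above Dixon's 95% critical value of 0.625 for 6 samples. It was the only one of the 12 sets of 6 values (6 genes in 2 groups) that exceeded the critical value, although dnj-19 in the same library came to 0.625 after rounding, just below it, and chance alone exceeds it in about 1 set in 20. The same library had the highest oocyte and germline marker level, and the part of that in the hsp-90 level was not tested.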

How the results depend on the processing

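The number of members past the threshold was 0 in all 21 alternatives, and the lowest adjusted p of any member in any of them was 0.148 (dnj-19 without vitamin D library 5, edgeR). The order of the mean levels was the same with and without division by length, in all 5 neighbouring pairs, although single libraries departed from it by CPM (hsp-90 above hsp-1 in vehicle library 6, hsf-1 above unc-23 in vitamin D library 5 and vehicle library 5). Signs turned only for estimates close to 0 that were never called: dnj-12 had 0.000556 when only library totals scaled the counts (where hsf-1 had 0.11 and unc-23 0.10, the last with an unadjusted p of 0.0286 and an adjusted p of 0.182 in edgeR), and with the length trend removed hsf-1 had -0.011, hsp-1 -0.047 and unc-23 -0.015. The share of all tested genes under an unadjusted 0.05 was not counted in the fit on library totals. Without vehicle libraries 5 and 6 (added after seeing the data) hsp-1 had -0.039, and leaving out single libraries gave it -0.034 to 0.021. Fold changes rose with exon length across genes (Spearman's rho 0.39 over 13147 genes), which is why the length trend was examined.

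The count of all genes past the threshold was 492, and 1163 with DESeq2, 136 with the replicate block, 3924 without vehicle libraries 2 and 3, 1609 with the sperm level as covariate and 250 with the length trend removed. Leaving out single libraries gave 260 to 625. Of the 58 related genes 1 passed, and 2 with total counts, 4 with DESeq2, 0 with the replicate block, 15 without vehicle libraries 2 and 3, 10 with the sperm covariate, 0 with the length trend removed, 4 without vehicle libraries 5 and 6, and 0 to 4 without single libraries. The cause was not tested. Total counts made 69.5% of calls higher, the replicate block 76.5%, the length correction 75.2%, against 48.0%.

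Libraries share replicate numbers across groups, but same-numbered libraries deviated together in some cases only. Correlations ran from -0.42 to 0.44, and 2 of 6 were closest to their own number. These values cannot decide whether the numbers pair the pools, and the main fit did not pair them. The replicate block called no member.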

Other observations

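Subunits of the chaperonin TRiC, which act in a single ring complex, did not vary together across the vehicle libraries. The level of cct-3 was 638 to 777 CPM in the 6 vitamin D libraries, 676 and 749 CPM in vehicle libraries 5 and 6, and 408, 427, 435 and 417 CPM in vehicle libraries 1 to 4. For cct-8 the values were 457 to 514 CPM on vitamin D, 441 and 477 CPM in vehicle libraries 5 and 6, and 330, 329, 325 and 349 CPM in vehicle libraries 1 to 4. The prefoldin gene pfd-3 was arranged in the same way, with 145 to 170 CPM on vitamin D, 140 and 163 CPM in vehicle libraries 5 and 6, and 112 to 118 CPM in vehicle libraries 1 to 4. The subunit cct-7 showed no such step, with 383 to 429 CPM on vitamin D and 392 to 424 CPM on vehicle. The TMM factors were 1.01 to 1.04 in vitamin D libraries, 1.03 in vehicle libraries 5 and 6, and 0.935 to 0.972 in vehicle libraries 1 to 4. The labels name no batch, and the part of a batch in these levels was not tested. The choice of these genes followed a look at their values.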
